A study of Drosophila melanogaster with 12 samples.

Results

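The thioester-containing protein genes of Drosophila melanogaster, Tep1, Tep2, Tep3, Tep4 and Mcr, were followed through RNA-seq libraries of wing discs dissected from instar 3 larvae. The members were matched by their FlyBase identifiers, which are FBgn0041183 for Tep1, FBgn0041182 for Tep2, FBgn0041181 for Tep3, FBgn0041180 for Tep4 and FBgn0020240 for Mcr. They are 5 of the 14869 genes in the count table, and all 5 were among the 8346 genes with enough counts to be tested.

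Each of 4 genotypes was sequenced in 3 libraries. Wild-type larvae had the w[1118] genotype and only endogenous ash1. The other 3 lines carried the mutant allele pair ash1[10]/ash1[22] in the w[1118] background together with a P{pTub - EGFP::ASH1, w+} transgene, in which the alpha-tubulin promoter drives an EGFP fusion of ASH1. This transgene encoded the full-length protein in the line called ASH1 WT, a protein without the BAH domain in the line called ΔBAH, and a protein that lacks the BAH domain and also carries a mutated first AT hook in the line called ΔBAH mutAT1. All larvae were raised at 25 °C. All lines other than wild type therefore share the ash1 mutation and ubiquitous expression of a fusion protein, and no group carried the mutation without a transgene. ASH1 is a Trithorax group histone methyltransferase, and BAH domains and AT hooks are parts of chromatin proteins that contact nucleosomes and AT-rich DNA. The 3 libraries of a genotype came from separate RNA preparations.

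Thioester-containing proteins are large secreted relatives of vertebrate complement factor C3 and alpha-2-macroglobulin. Many of them hold an internal thioester bond that reacts with a target surface once the protein has been cleaved, so that the protein stays covalently attached. In the mosquito Anopheles gambiae, TEP1 marks bacteria and malaria parasites for phagocytosis or killing. In Drosophila, Tep1 to Tep4 are known mainly from hemocytes (blood cells) and the fat body, where Tep1 is inducible by infection and responds to JAK-STAT signalling, and Tep4 is widely used as a marker of blood progenitors in the lymph gland. Mcr, the macroglobulin complement-related protein, lacks the reactive thioester cysteine. It is a component of the septate junctions that seal epithelia such as the wing disc, and it also acts in the uptake of fungal cells by cultured blood-like cells.

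All members lie on chromosome arm 2L. The coordinates below are those of the BDGP6 annotation, whereas the authors counted reads on the older dm3 build. Tep2 occupies positions 7693727 to 7701601 on the minus strand, with 5 transcripts and 5288 bases of merged exons. Tep3 follows at 7702805 to 7710690 on the plus strand, with 4928 exonic bases. These neighbours are transcribed away from each other, with 1203 bases between their facing ends. Mcr lies at 8074117 to 8082982 on the minus strand and has 6296 exonic bases. Tep1 lies at 15888640 to 15893811 on the minus strand, with 9 merged exons that cover 4219 bases. Tep4 lies at 19548507 to 19556451 on the plus strand and has 4889 exonic bases. Annotated genes on the opposite strand overlap exons of Tep2 (CG43235, by 95 bases), Tep3 (asRNA:CR44990, by 1261 bases) and Mcr (asRNA:CR45257, by 124 bases). Whether the counting used strand is not stated, so reads of these partners cannot be told apart from those of the members. Tep1 and Tep4 overlap no other annotated gene. Tep5Psi, another locus of the family on 2L, was not analysed here.

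Total counts per library ranged from 15083960 to 39180697. Counts on ash1, the gene supplied by the transgene, lay between 85.6 and 112 CPM (counts scaled to a common library size with TMM factors) in wild type. In the lines with a transgene they lay between 155 and 534 CPM, without overlap. By replicate they were at 234, 534 and 463 CPM in ASH1 WT, 155, 448 and 388 CPM in ΔBAH, and 343, 182 and 417 CPM in ΔBAH mutAT1. The part of these ash1 levels in the values of the members was not tested. The wing disc markers were high in all libraries, with a summed level of 2123 to 3601 CPM over 7 genes, and the selector gene vg lay between 171 and 337 CPM. One wild-type library, replicate 1, stood apart in the larval fat body markers, whose summed level was 2985 CPM there and between 20.3 and 381 CPM in the other libraries. The labels carry internal library numbers that fall into 3 blocks of near-consecutive numbers. Block 1 holds replicate 1 of wild type and of ΔBAH mutAT1. Block 2 holds replicate 2 of these genotypes and replicate 1 of ASH1 WT and of ΔBAH, and block 3 holds the remaining libraries. The authors sequenced the libraries in 3 runs, and that the blocks stand for these runs is an inference from the numbers.

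The family spans a wide range of transcript levels in the wing disc. Per kilobase of merged exons, Mcr had the highest mean level, with 79.8 CPM per kb over the 12 libraries. Tep4 followed with 39.7 CPM per kb. Tep3 and Tep2 were close to each other, with 12.5 and 11.9 CPM per kb. Tep1 came last with 0.587 CPM per kb. Mcr thus made up 55.2% of the summed per-length level of the family, Tep4 27.5%, Tep3 8.67%, Tep2 8.22% and Tep1 0.406%. The ranges over libraries of Mcr (50.9 to 109 CPM per kb), Tep4 (29.4 to 47.3) and the lower members did not overlap. The ranges of Tep3 (7.93 to 16.2) and Tep2 (7.68 to 16.3) overlapped almost completely, so these neighbours in the order did not differ beyond their spread. Tep1 (0.212 to 1.20) lay below all other members in every library. By mean CPM, Mcr was at percentile 96.4 of the genes tested, Tep4 at 87.8, and Tep1 at 14.9.

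**Figure D1:**
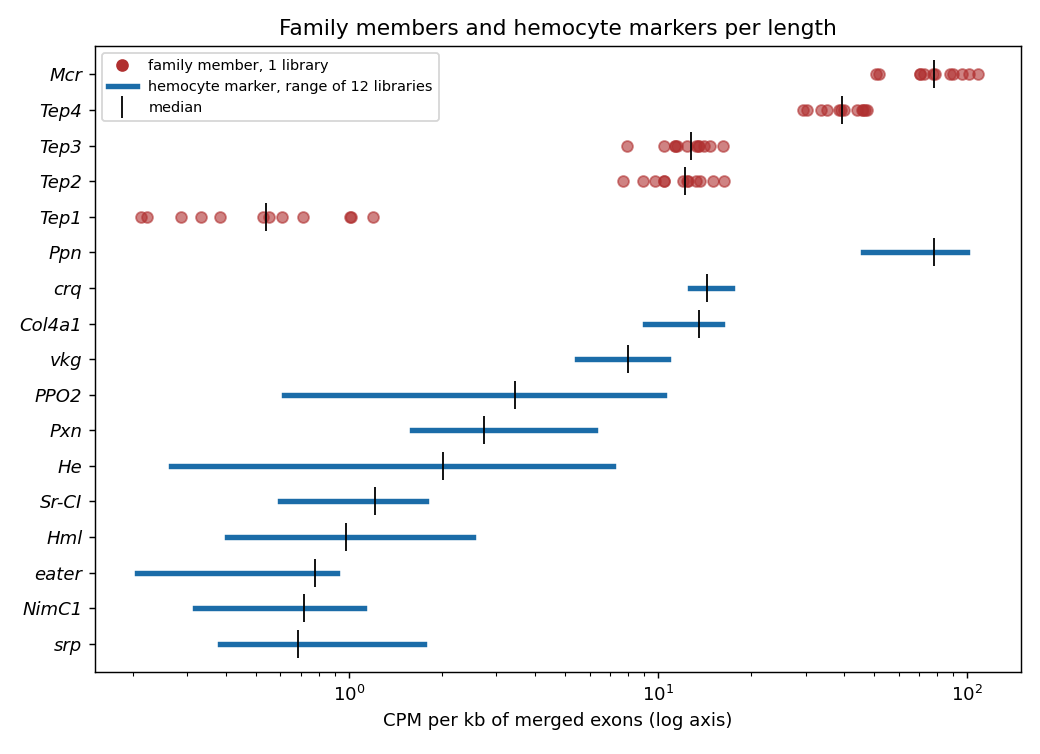
Level per kilobase of merged exons (CPM per kb, log axis) of the family members in each of the 12 libraries (red points) and of the 12 hemocyte markers with counts in all libraries (blue bars from the lowest to the highest library), with black ticks at the medians. Mcr and Tep4 sit above 29 CPM per kb in all libraries, whereas Tep1 lies between 0.212 and 1.20 CPM per kb, overlapping the ranges of the hemocyte markers eater and NimC1.

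Tep1 was the only member whose level in the ΔBAH line lay apart from that of ASH1 WT. In wild type, Tep1 was at 2.32, 4.28 and 2.22 CPM in replicates 1, 2 and 3, from 92, 126 and 36 counts. In ASH1 WT it was at 2.99, 5.04 and 4.26 CPM, from 85, 82 and 75 counts. The ΔBAH libraries gave 1.61, 1.20 and 0.939 CPM, from 45, 20 and 14 counts. In ΔBAH mutAT1, the values were 1.40, 2.56 and 0.895 CPM, from 51, 98 and 15 counts. All ΔBAH libraries were thus below all wild-type and all ASH1 WT libraries, and the ΔBAH mutAT1 libraries were below all ASH1 WT libraries but spread across the ΔBAH and the wild-type values. Mean levels (± SD, n = 3) were 2.94 ± 1.16 CPM for wild type, 4.10 ± 1.04 for ASH1 WT, 1.25 ± 0.338 for ΔBAH and 1.62 ± 0.857 for ΔBAH mutAT1.

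The Tep1 values rest on few counts. The 14 counts of ΔBAH replicate 3 have an exact 95% Poisson interval of 7.65 to 23.5 counts, or 0.513 to 1.57 CPM. At the other end, the 82 counts of ASH1 WT replicate 2 have an interval of 4.01 to 6.26 CPM. The closest libraries of these lines were replicates 1, where the interval of ΔBAH reached up to 2.15 CPM and that of ASH1 WT down to 2.39 CPM. These intervals cover counting error only, and reads were counted without molecular identifiers.

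**Figure D2:**
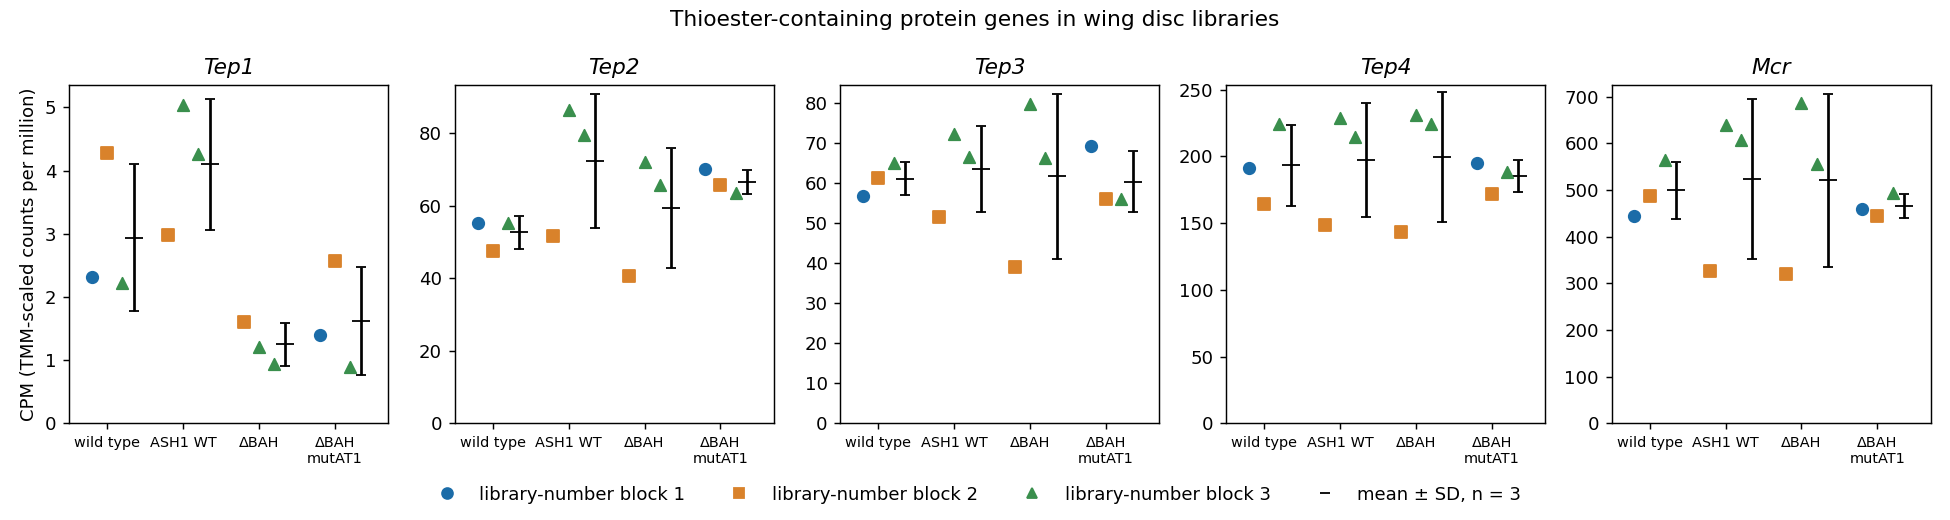
Expression (CPM, linear axes from 0) of Tep1, Tep2, Tep3, Tep4 and Mcr in each library by genotype, with colours and symbols for the 3 blocks of library numbers and black bars for mean ± SD (n = 3). Tep1 in the ΔBAH libraries (0.939 to 1.61 CPM) lies below all wild-type and ASH1 WT libraries, while the block 2 libraries of ASH1 WT and ΔBAH are the lowest of their genotypes for Tep2, Tep3, Tep4 and Mcr.

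The comparison of ΔBAH with ASH1 WT asks what the loss of the BAH domain from the transgenic protein changes. Tep1 was 3.23-fold lower in ΔBAH, a log2 fold change of -1.69 (SE 0.45, 95% interval -2.68 to -0.70). With edgeR's quasi-likelihood test this gave an unadjusted p of 0.00327, rank 15 of the genes tested, and an adjusted p of 1. No gene passed an adjusted p of 0.05 in this comparison (0% of genes tested), and 103 genes had an unadjusted p under 0.05. The adjusted p of Tep1 was 0.305 with DESeq2 and 0.706 with the library-number block in the fit. By the study's own kind of threshold, lower by more than 2-fold with an unadjusted p under 0.01, 13 genes passed (0.156%), and Tep1 was among them. The study singled Tep1 out from these same counts in this comparison, so the value is a description and no independent evidence. In bulk discs, fewer cells that express the gene and less RNA per cell cannot be told apart.

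The groups of this comparison did not overlap for 1 of the 5 members, Tep1, which is also true of 4.09% of all genes tested. Against wild type, Tep1 was 2.33-fold lower in ΔBAH, again without overlap between the libraries, with a log2 fold change of -1.22 (SE 0.45, edgeR adjusted p = 0.341). Non-overlapping libraries were more common here, at 13.6% of genes tested. Without wild-type replicate 2, the library with the highest wild-type value, this log2 fold change was -0.85. Against ASH1 WT, the ΔBAH mutAT1 libraries had a Tep1 log2 fold change of -1.31 (SE 0.44, edgeR adjusted p = 1), without overlap for this member, as for 6.15% of genes tested. The comparisons of ΔBAH and of ΔBAH mutAT1 with ASH1 WT share the ASH1 WT libraries, and those with wild type share the wild-type libraries, so they are not separate evidence of a lower level.

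The remaining comparisons separated Tep1 less. Between the full-length rescue line and wild type, ASH1 WT gave a Tep1 log2 fold change of 0.47 (SE 0.43, 95% interval -0.48 to 1.42, edgeR adjusted p = 1). Between ΔBAH mutAT1 and wild type it was -0.84 (SE 0.44, 95% interval -1.80 to 0.12, adjusted p = 0.772). Leaving out wild-type replicate 2 made this -0.47, and leaving out ΔBAH mutAT1 replicate 2 made it -1.34. For ΔBAH mutAT1 relative to ΔBAH, whose transgenes differ only in the first AT hook, it was 0.38 (SE 0.45, 95% interval -0.61 to 1.36, adjusted p = 1). The value relative to ΔBAH changed sign to -0.12 without ΔBAH mutAT1 replicate 2, the library with the highest value of its line. A test for any difference among the genotypes gave Tep1 an adjusted p of 0.279 with edgeR. The same question gave an adjusted p of 0.0241 with DESeq2, where Tep1 was called. DESeq2 called 2.92% of its genes tested here, and edgeR 1.65%. Over all alternatives the adjusted p of Tep1 ranged from 0.0241 to 0.644. This test also uses the ASH1 WT and ΔBAH counts from which the study singled Tep1 out, so it is no independent evidence.

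Within blocks of library numbers, Tep1 in ΔBAH could only be lower than in ASH1 WT and wild type, since these libraries do not overlap. The ratios therefore show the size of the difference by block and are no repeat of it. In block 2, with 1 library per genotype, ΔBAH was at 0.539 times ASH1 WT and at 0.376 times wild type. Block 3 gave ratios of 0.230 to ASH1 WT (2 libraries each) and 0.483 to wild type. ΔBAH mutAT1 was below wild type in each block, at 0.602 times its level in block 1, 0.599 in block 2 and 0.404 in block 3. Other comparisons of Tep1 turned with the block. ASH1 WT was at 0.697 times wild type in block 2 and at 2.10 times wild type in block 3, and ΔBAH mutAT1 was at 1.59 and 0.836 times ΔBAH. Relative to ASH1 WT, whose libraries it does not overlap either, ΔBAH mutAT1 was at 0.859 times the level in block 2 and 0.192 times in block 3.

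**Figure D3:**
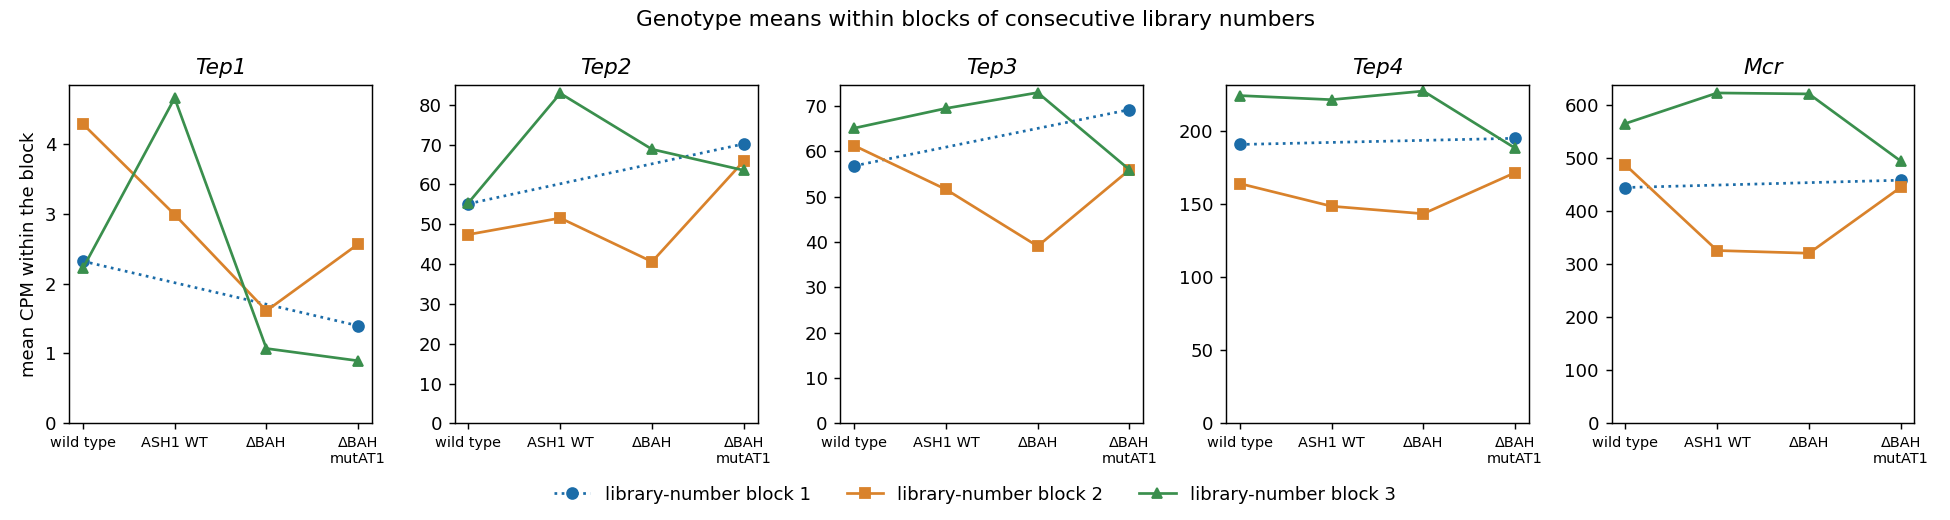
Mean CPM (linear axes from 0) of each member by genotype within the 3 blocks of library numbers, with lines joining the genotypes of 1 block; block 1 (dotted) holds wild type and ΔBAH mutAT1 only. For Tep1, ΔBAH lies below ASH1 WT in both blocks that hold it (ratios 0.539 and 0.230), whereas for Mcr the ratio is 0.984 and 0.997 and the blocks themselves lie apart.

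Tep2, a Tep gene with several alternative transcripts, had its lowest mean in wild type, but no difference passed the test. Its wild-type libraries lay at 55.2, 47.4 and 55.4 CPM. ASH1 WT gave 51.6, 86.3 and 79.4 CPM, and ΔBAH gave 40.6, 72.0 and 65.6 CPM. The ΔBAH mutAT1 libraries were at 70.2, 65.9 and 63.6 CPM, all above every wild-type library. In the other lines, replicate 1 lay within or below the wild-type range and replicates 2 and 3 above it. The log2 fold change between ΔBAH mutAT1 and wild type was 0.34 (SE 0.23, 95% interval -0.17 to 0.85, edgeR adjusted p = 1). This was the only member without overlap in that comparison, against 14% of genes tested. Within blocks, the ratio of ΔBAH mutAT1 to wild type was 1.27, 1.39 and 1.15, a direction that the lack of overlap had already fixed. Between ASH1 WT and wild type the log2 fold change was 0.46 (SE 0.23, 95% interval -0.05 to 0.97, adjusted p = 0.682), with ratios of 1.09 in block 2 and 1.5 in block 3. Relative to ASH1 WT, Tep2 in ΔBAH gave -0.29 (95% interval -0.80 to 0.23, adjusted p = 1).

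Tep3, the neighbour of Tep2, had nearly the same mean in all genotypes. Its libraries lay at 56.8, 61.3 and 65.1 CPM in wild type and at 51.6, 72.4 and 66.6 CPM in ASH1 WT. The ΔBAH line spread most, with 39.1, 79.7 and 66.3 CPM, and ΔBAH mutAT1 gave 69.2, 56.0 and 56.0 CPM. The groups overlapped in all 6 comparisons. The fitted log2 fold changes ran from -0.07 to 0.06, and their 95% intervals from -0.59 to 0.58. The edgeR test for any difference among genotypes gave an adjusted p of 1.

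Tep4, the lymph gland progenitor marker, was at 191, 164 and 225 CPM in wild type. It was at 149, 229 and 215 CPM in ASH1 WT, 144, 231 and 224 CPM in ΔBAH, and 195, 172 and 189 CPM in ΔBAH mutAT1. Again the groups overlapped in all comparisons, with log2 fold changes from -0.11 to 0.05, intervals from -0.60 to 0.54, and an adjusted p of 1 for any difference. Replicate 1 of both ASH1 WT and ΔBAH stood below the other libraries of these lines.

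Mcr, the septate junction member, was at 444, 487 and 565 CPM in wild type and at 326, 639 and 606 CPM in ASH1 WT. The ΔBAH libraries gave 321, 685 and 556 CPM, and those of ΔBAH mutAT1 458, 445 and 494 CPM. The groups overlapped in each comparison. Its log2 fold changes ran from -0.17 to 0.07, with intervals from -0.82 to 0.72 and an adjusted p of 1 for any difference. For Tep2, Tep3, Tep4 and Mcr alike, every 95% interval in the 6 comparisons lay within a 2-fold change in either direction. The wider intervals of Tep1, the member with the fewest counts, reached beyond a 2-fold change in each of the 6 comparisons.

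**Figure D4:**
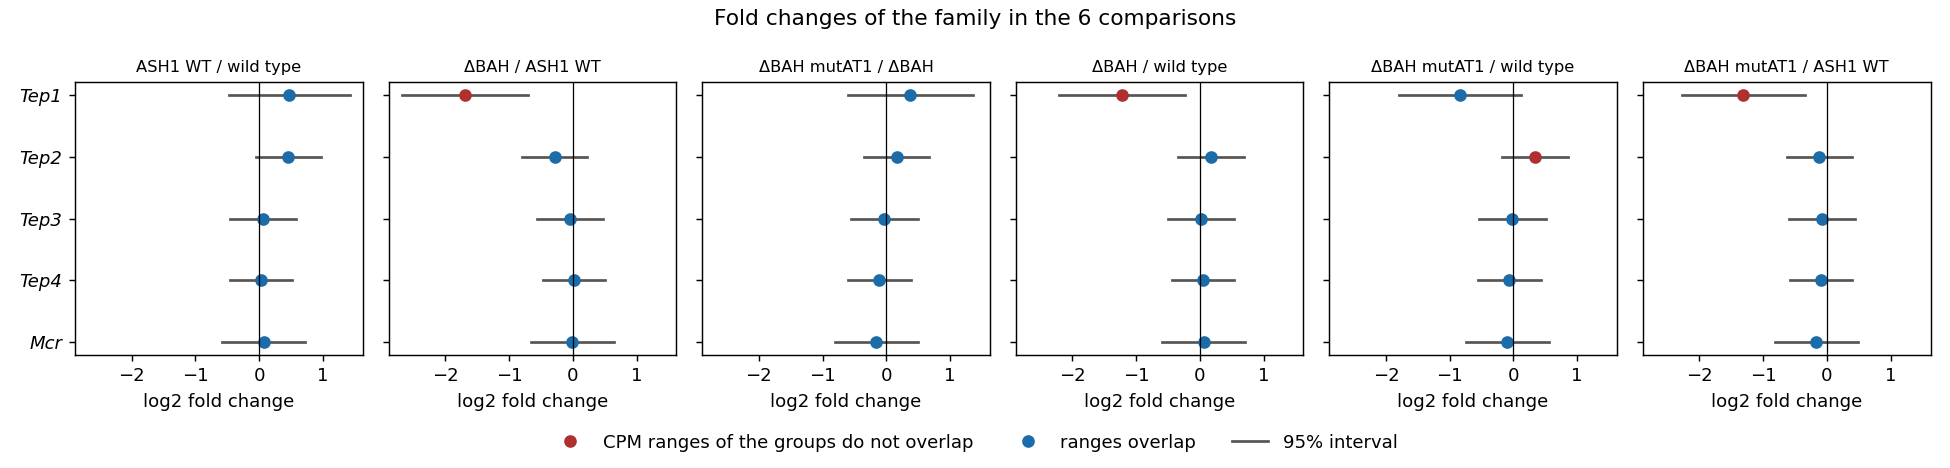
Log2 fold changes of the 5 members (points) with 95% intervals (lines) in the 6 comparisons, from edgeR's fit of all 12 libraries; red points mark comparisons in which the libraries of the groups do not overlap. Tep1 lies at -1.69 between ΔBAH and ASH1 WT, while Tep3, Tep4 and Mcr stay between -0.17 and 0.07 throughout.

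By edgeR, 0 of the 5 members had an adjusted p under 0.05 in any comparison. Over all genes tested, the share called was 1.92% between ASH1 WT and wild type, 1.93% between ΔBAH and wild type and 2.17% between ΔBAH mutAT1 and wild type. It was 0.0479% between ΔBAH mutAT1 and ΔBAH, again 0.0479% between ΔBAH mutAT1 and ASH1 WT, and 1.65% for any difference among the genotypes. An unadjusted p under 0.05 was reached by 1 member, Tep1, in each of the comparisons of ΔBAH with ASH1 WT, ΔBAH with wild type and ΔBAH mutAT1 with ASH1 WT, and by 0 members in the others. Of all genes tested, 1.23%, 8.84% and 2.13% reached it in the named comparisons, in this order. In the others this share lay between 1.95% and 8.75%. DESeq2 and limma-voom also called 0 members in the pairwise comparisons. The median log2 fold change of the members lay between -0.12 and 0.07 over the comparisons, and that of all genes tested between -0.01 and 0.01.

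Tep2, Tep3, Tep4 and Mcr varied together from library to library, and Tep1 did not follow them. Over the 12 libraries, the Pearson correlations of log2 CPM among these 4 genes ranged from 0.754 (Tep2 with Mcr) to 0.926 (Tep4 with Mcr). Those of Tep1 with each of them ranged from -0.110 to 0.086. The libraries share genotypes and number blocks, and Tep1 rests on few counts, so these values are descriptions. Within ASH1 WT, Mcr was 1.91 times as high in block 3 as in block 2, and within ΔBAH 1.94 times. The same ratios were 1.16 in wild type and 1.11 in ΔBAH mutAT1. Tep3 in ΔBAH gave 1.87, and Tep4 gave 1.49 in ASH1 WT and 1.59 in ΔBAH. Tep1 went the other way in ΔBAH, with a ratio of 0.665, and was at 1.56 in ASH1 WT, 0.518 in wild type and 0.349 in ΔBAH mutAT1. The part of the block in the values of single genotypes was not tested beyond the fits with the block as a term.

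The members differed in how many other genes had a similar pattern. The genes most like Tep1 over the 12 libraries were crc (r = 0.845), which encodes the transcription factor ATF4 of the integrated stress response, VhaAC39-1 (r = 0.813), a subunit of the vacuolar proton pump, and sad (r = 0.811), an ecdysone synthesis enzyme. CG33225 (r = 0.806) and sesB (r = 0.803), a mitochondrial ADP/ATP carrier, came next. Only 0.0599% of the genes tested had a correlation above 0.8 with Tep1. With genotype means removed, the correlation with crc was 0.747 and that with sad 0.212. The share above 0.8 was 1.88% for Tep2 and 3.75% for Tep3. For Tep4 and Mcr, the members with the highest levels, it was 20.6% and 18.6%. The part of counting error in the low share of Tep1 was not tested. The nearest to Tep4 were Cont (r = 0.988), a septate junction adhesion protein, Mp (0.984), a collagen, and app (0.984), a palmitoyltransferase of the Fat pathway. Nearest to Mcr were the receptor gene Toll-7 (0.983), Gp150 (0.982) and the Wingless receptor gene fz2 (0.980). Tep2 was most like FBgn0028642 (0.943), lt (0.940), which encodes a vesicle fusion subunit, and 5PtaseI (0.933), and Tep3 like CG4238 (0.958), CG14082 (0.939) and CG32533 (0.937). CG33225 and CG14082 had means of only 0.597 and 0.562 CPM over the 12 libraries, so their correlations rest on few counts.

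Few genes of the pathways around the family were called, as was true of all genes tested. By edgeR, that share was at most 2.17% in a pairwise comparison and 0% between ΔBAH and ASH1 WT. Counts of 0 or 1 call in a list, here and for the cell type markers below, are therefore no result about the list. Of the JAK-STAT pathway, which induces Tep1, 14 listed genes were tested and 0 were called in any comparison by edgeR, and the median log2 fold change of the list lay between -0.11 and 0.15. Of 13 tested genes of the Imd pathway, which answers Gram-negative bacteria, 0 were called, with medians from -0.09 to 0.01. The Toll pathway, which answers fungi and Gram-positive bacteria, had 21 tested genes with medians from -0.09 to 0.03. One of them was called, SPE, which encodes the Spätzle-processing enzyme and was higher than in wild type in ASH1 WT (log2 fold change 1.44, adjusted p = 0.0269), ΔBAH (1.40, adjusted p = 0.0287) and ΔBAH mutAT1 (1.96, adjusted p = 0.00373). These comparisons share the wild-type libraries. Antimicrobial peptide genes were low, with 2 of 17 genes in the table passing the filter, 0 called, and a summed level of 0.179 to 7.72 CPM. Of 19 tested phagocytic and scavenger receptors 0 were called (medians from -0.11 to 0.15), and of 28 tested septate junction components other than Mcr 0 were called (medians from -0.05 to 0.06). The summed level of the septate junction genes correlated with Mcr over the libraries (r = 0.951) and with Tep4 (r = 0.906), but Mcr also followed the sums of the Toll (r = 0.975), lymph gland (r = 0.947), JAK-STAT (r = 0.929) and phagocytic receptor (r = 0.929) lists. For Tep1 the value with the septate junction genes was 0.095. In the lymph gland list, shg (median 527 CPM) and dome (245 CPM) had the highest levels, and dome is also in the JAK-STAT list. Whether the discs held lymph gland cells was not tested.

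Markers of other cell types known to express Tep genes were measured in the same libraries. Of the hemocyte list, 13 genes were in the table, 12 were tested and 0 were called in any comparison. Its summed level was 881 to 1130 CPM in wild type, 721 to 1248 in ASH1 WT, 730 to 1028 in ΔBAH and 816 to 902 in ΔBAH mutAT1. Most of this sum came from Ppn, a matrix protein gene with a median of 744 CPM, and the crystal cell factor lz was at 0 counts in 5 libraries. Hml, a plasmatocyte gene, was at 12.3, 29.5 and 14.0 CPM in ASH1 WT and at 14.0, 11.0 and 5.90 CPM in ΔBAH, so that these lines overlapped. Its log2 fold change between them was -0.85 (edgeR adjusted p = 1), and that of the phagocytosis receptor NimC1 was 0.18 (adjusted p = 1). He, a hemocyte surface protein gene, was at -1.19 (adjusted p = 1). The list's median in this comparison was -0.25, and over all comparisons it ran from -0.61 to 0.58, highest between ASH1 WT and wild type. In the comparison of ΔBAH mutAT1 with ASH1 WT, where Tep1 was at -1.31, the list's median was -0.61. He was at -1.47 and the receptor gene eater at -1.29 (adjusted p = 1 for both). Hml was at -0.89 there, and NimC1 was nearly unchanged at -0.04. The part of hemocytes in the Tep1 values was not tested. Per length, the listed markers spread widely. Hml had a median of 0.981 CPM per kb, NimC1 0.716 and eater 0.779, whereas crq had 14.4, Col4a1 13.6 and Ppn 77.9.

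Of the 9 larval fat body markers 0 were called, with list medians from -3.63 to 0.77. In wild-type replicate 1, where these markers summed to 2985 CPM, each member lay within the range of the other 11 libraries, with Tep1 at 2.32, Tep2 at 55.2, Tep3 at 56.8, Tep4 at 191 and Mcr at 444 CPM. The 4 lymph gland genes, the 5 tested tracheal genes and the 7 tested wing disc genes had 0 calls. Their medians ran from -0.16 to 0.07, from -0.33 to 0.04 and from -0.22 to -0.09. Of 5 adult muscle precursor genes 1 was called, stumps, an adaptor of FGF signalling, with a log2 fold change of -0.70 between ΔBAH mutAT1 and wild type (adjusted p = 0.0434). The medians of that list ran from -0.36 to 0.08.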

How the data were processed

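Total RNA of dissected wing discs was reverse transcribed after oligo(dT) selection, and the authors sequenced it as single-end reads on an Illumina instrument. Per the labels and methods, the authors aligned reads with TopHat 2.0.9 to dm3 and made the deposited whole-number counts per gene with HTSeq 0.5.4p3; strand and multi-mapping options are not given in the sources used here. All 12 columns were used. Symbols came from BDGP6, which holds 13524 of the 14869 identifiers. For identifiers absent from it, symbols came from a gene name list or from the names the study gave. In all, 13691 identifiers had a symbol.

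Counts were fitted with edgeR 4.0.16 in R 4.3.3 (filterByExpr with minimum count 10, TMM factors, quasi-likelihood test, 1 coefficient per genotype, all 12 libraries). Fold changes use a prior count of 0.125, adjusted p are Benjamini-Hochberg over 8346 genes, and called means an adjusted p under 0.05. The common dispersion was 0.103. CPM are counts scaled to library size with TMM factors, and CPM per kb divides by merged exon length. Correlations use log2 CPM with a prior count of 2. The procedure was tested on simulated data.

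Members and gene lists were chosen with earlier results of these data known. Named are the 5 members, the 3 genes most correlated with each (5 for Tep1), called genes of the lists, and markers beside a member. The lists were JAK-STAT, Toll and Imd pathways, antimicrobial peptides, phagocytic and scavenger receptors, septate junction components, and markers of wing disc, hemocytes, lymph gland, larval fat body, trachea and adult muscle precursors.

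Alternatives were RLE factors, DESeq2 1.42.0, limma-voom 3.58.1 on all genes as in the study's methods, no filter, a prior count of 2, only the 6 libraries compared, a replicate block, a library-number block, and leaving out each library. Equal replicate numbers paired ASH1 WT with ΔBAH (correlations of deviations from genotype means 0.813, 0.588 and 0.487) and also ΔBAH mutAT1 with wild type (0.423, 0.439 and 0.486); in both cases equal numbers fall in the same number block. In the other pairs correlations ranged from -0.454 to 0.499. No libraries of the same genotype were copies of each other, and pairs from different genotypes were not compared in this way. Sequences were not used here.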

Additional observations from a re-analysis of the deposited data

How the results depend on the processing

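The number of members called was 0 in 138 of 139 recounts over comparisons and alternatives. DESeq2's test for any difference among genotypes called 1 member, Tep1 (adjusted p = 0.0241), and 2.92% of all genes it tested. With the replicate block, which pairs equal replicate numbers, 0 members were called and Tep1 between ΔBAH and ASH1 WT was at -1.67 (edgeR adjusted p = 1). The Tep1 difference between ΔBAH and ASH1 WT ranged from -1.77 to -1.59 over the alternatives and from -1.92 to -1.52 when leaving out single libraries. Of the 240 alternative fold changes of Tep1 and Tep2, 3 changed sign, all when leaving out a library: Tep1 between ΔBAH mutAT1 and ΔBAH ranged from -0.12 (without ΔBAH mutAT1 replicate 2) to 0.65, Tep2 in that comparison from -0.073 (without ΔBAH replicate 1) to 0.33, and Tep2 between ΔBAH mutAT1 and ASH1 WT from -0.32 to 0.021 (without ASH1 WT replicate 2). Of the 360 of Tep3, Tep4 and Mcr, 50 changed sign, with absolute log2 values up to 0.25, and none was called. The causes were not tested.

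Tep1 had only 14 to 126 counts per library. Other limits are 3 libraries per genotype, blocks of library numbers that are spread unevenly over genotypes, and dm3 gene models that were set beside BDGP6 lengths.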

Other observations

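The ratio of the neighbours Tep3 and Tep2 is given here by line, a pattern noticed after the values were seen and described without a test. The ratio of Tep3 to Tep2 CPM was 1.03, 1.29 and 1.18 in wild type, 1.00, 0.838 and 0.839 in ASH1 WT, 0.963, 1.11 and 1.01 in ΔBAH, and 0.986, 0.849 and 0.881 in ΔBAH mutAT1. All wild-type libraries were above all ASH1 WT and ΔBAH mutAT1 libraries, and the ΔBAH libraries overlapped with wild type. The closest libraries were replicate 1 of wild type at 1.03 and replicate 1 of ASH1 WT at 1.00. How often the ratios of other gene pairs separate in this way was not counted. Among single genes, 14% of those tested did not overlap between ΔBAH mutAT1 and wild type.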
